A study of Homo sapiens with 4 samples.

Results

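The baseline transcriptome of UM-UC-3 cells, a human line grown from a urothelial carcinoma of the bladder, was described from 1 RNA-seq library, chosen by its label as the control siRNA sample and 1 of 4 samples in the series. The other 3 samples received siRNAs against hnRNPK, PTBP1 or a long noncoding RNA and were not compared here. The control cells were transfected for 48 h with 75 nM of an siRNA labelled as the negative control, so the levels are those of transfected cells and not of untouched cells. All 25719 genes that the table lists were ranked by CPM, the reads of a gene per 1000000 reads. The table held 61371954 reads on these genes, and 1 read was worth 0.0163 CPM. With 1 library there was no replicate and no test. The intervals given are 95% exact Poisson or binomial intervals, which cover counting error only.

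A urothelial cell is recognised by a few kinds of genes. Uroplakins form the plaques of the bladder surface. GATA3, FOXA1 and PPARG are transcription factors of the luminal program, and high molecular weight keratins such as KRT5 and KRT14 mark the basal layer. Epithelial cells hold together through E-cadherin (CDH1), claudins and desmosomes, and their cytoskeleton is built on keratins. Cells with mesenchymal features carry the intermediate filament vimentin (VIM) and N-cadherin (CDH2), and express transcription factors such as ZEB1 that repress CDH1.

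The transfected oligonucleotide is shown because it is the only treatment of these cells. The capitals mark the 19 bases of the duplex and the small letters the overhang:

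control siRNA: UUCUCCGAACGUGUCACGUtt

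No full match to the 19 bases was found on either strand in the 206694 transcripts of GENCODE release 29. There was also no match of any 16 consecutive bases of it. The search shows only that these letters are not in these transcripts.

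Reads were concentrated on few genes. The 100 highest genes held 31.3% of the reads, 526 genes held 50% of them, and 5111 genes held 90%. Protein-coding genes took 85.5% of the reads, small structured RNAs 4.15%, long noncoding RNAs 1.00% and pseudogenes 0.262%. A further 9.11% lay on 1634 listed identifiers that matched no gene of GENCODE release 29 and are given no name here. Of the listed genes, 13184 were at 1 CPM or more, 95 were at 1000 CPM or more, 3351 had 1 to 3 reads and 308 had none. A level of 3 reads, or 0.0489 CPM, is taken as the floor. Among the annotated protein-coding genes whose level could be assessed, 11444 of 19061 (60.0%) were at 1 CPM or more, with unlisted genes counted as below it. The median was 16.7 CPM over the 14827 that are listed. Lists of genes are set beside this share below.

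**Figure D1:**
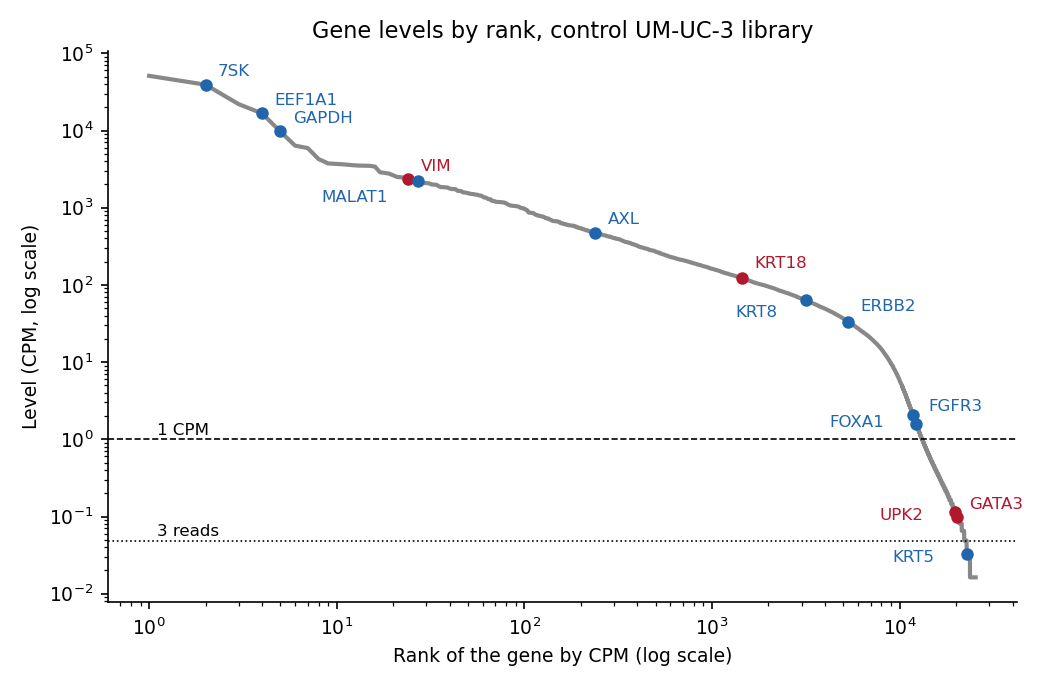
Level of each listed gene (CPM, log scale) against its rank (log scale) in the control UM-UC-3 library, with VIM, KRT18, UPK2 and GATA3 in red, other named genes in blue, and lines at 1 CPM and at 3 reads (0.0489 CPM). VIM sat at rank 24 near the top of the curve, while UPK2 and GATA3 sat at ranks 19657 and 20208, below 1 CPM.

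The highest gene with a name was 7SK, the noncoding RNA that holds the elongation factor P-TEFb inactive, at 39227 CPM. It was followed by the translation factor EEF1A1 at 16662 CPM, the glycolytic enzyme GAPDH at 9716 CPM, the ribosomal protein gene RPL4 at 6364 CPM and the membrane-binding annexin ANXA2 at 5931 CPM. Among the 25 highest named genes by CPM, 10 coded for ribosomal proteins and none for a histone. The rest included the chaperone HSPA8 (4269 CPM), the actin-sequestering TMSB10 (3748 CPM), the glycolytic ENO1 (3566 CPM), the ribosome-associated RACK1 (3518 CPM), the actin cross-linker FLNA (3491 CPM) and the scaffold AHNAK (2457 CPM). Ribosomal protein genes together took 9.97% of all reads, with 43 of 78 listed members at 1000 CPM or more. EEF1A1, GAPDH and many ribosomal protein genes have near-identical processed copies, so their exact values are uncertain.

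Genes were compared with each other per length, as reads per kb of exon per 1000000 reads (RPKM), because a long transcript gathers more reads. Where genes are ordered by CPM, the order is one of reads and not of transcripts. By this measure 9 genes remained among the 25 highest, with 7SK at 118510 RPKM, TMSB10 at 7557 RPKM, GAPDH at 3259 RPKM and EEF1A1 at 2801 RPKM. Histone genes, which package DNA and are made in S phase, provided 6 of the 25, led by H2BC12 at 3148 RPKM, H1-4 at 1555 RPKM and H1-5 at 1504 RPKM. Most histone messages of this kind lack a poly(A) tail. Of 33 listed histone genes, 30 were at 1 CPM or more, beside 77.1% of all listed protein-coding genes. The small nucleolar RNA SNORD17 (2299 RPKM) and SNORA73B (2277 RPKM) also ranked high per length, as did the ferritin chain FTL at 1237 RPKM and the galectin LGALS1 at 939 RPKM. SNORD17 lies inside SNX5 and SNORA73B inside SNHG3, so reads of the host gene could not be told apart from theirs.

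Among long noncoding RNAs the nuclear MALAT1 stood at 2213 CPM. The next highest were SNHG6 (282 CPM), SNHG29 (280 CPM), SNHG16 (253 CPM), NORAD (239 CPM), GAS5 (196 CPM), NEAT1 (194 CPM), SNHG3 (189 CPM), SNHG1 (165 CPM) and UGDH-AS1 (154 CPM). Several of these host small nucleolar RNAs in their introns. In the SNHG series 19 of 22 listed genes were at 1 CPM or more. The share over all 4575 listed long noncoding RNAs was 19.1% (874 genes). UGDH-AS1 overlaps UGDH, and without strand their reads could not be told apart. The highest pseudogenes were ZNF252P (45.5 CPM), SBDSP1 (43.3 CPM), ANXA2P2 (36.9 CPM), CENPBD2P (34.0 CPM) and AHSA2P (27.7 CPM), followed by CCDC144BP, RPS2P46, FAM86DP, ZNF767P and WASH7P between 22.3 and 25.6 CPM. Their values are uncertain where they copy a gene at a high level, as ANXA2P2 copies ANXA2.

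The 4 marker genes of cell identity spanned the whole range. VIM (chromosome 10, 17228259 to 17237593, plus strand, GRCh38) had 143831 reads and stood at 2343 CPM (95% interval 2331 to 2356). KRT18, the keratin of simple epithelia (chromosome 12, 52948871 to 52952901, plus strand), had 7452 reads and stood at 121 CPM (119 to 124). UPK2, a uroplakin (chromosome 11, 118925164 to 118958559, plus strand), had 7 reads, or 0.114 CPM (0.0459 to 0.235). GATA3 (chromosome 10, 8045378 to 8075203, plus strand) had 6 reads, or 0.0978 CPM (0.0359 to 0.213). The annotated span of UPK2 overlaps BCL9L, and reads of the overlap could belong to either gene.

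Per length, VIM stood at 454 RPKM and KRT18 at 37.7 RPKM, a ratio of 12 (95% binomial interval 11.8 to 12.3). The ratio of VIM to UPK2 per length was 4406 (2138 to 10959), or 7383 (3583 to 18365) with the longest transcript. That of KRT18 to UPK2 was 366 (177 to 910). These intervals rest on the 7 reads of UPK2. KRT18 exceeded its partner KRT8 by 4.12 times per length (3.96 to 4.28), or 2.64 times when each gene was given the length of its longest transcript. KRT8 and KRT18 lie next to each other and their annotated spans overlap. The defining urothelial markers UPK2 and GATA3 were thus near the floor of 3 reads in a line labelled as bladder cancer.

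Of the epithelial genes, 18 of 57 (31.6%) were at 1 CPM or more, beside 60.0% of all protein-coding genes, and 15 were not listed. CDH1 and the adhesion molecule EPCAM were not listed. A gene that is not listed has no value here. All reads outside the listed genes came to 3790 in the library total, or 61.8 CPM for every such gene together. Each listed gene had a read in this library or in the si-hnRNPK library, whose table lists the same 25719 genes. Some genes may be carried under retired identifiers, so not listed does not mean not expressed.

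The parts of the epithelial program that were measured differed by role. The catenins, which also serve other cadherins and signalling, were high, with CTNNA1 at 560 CPM, CTNNB1 at 321 CPM and CTNND1 at 144 CPM. Plakoglobin (JUP) had 5 reads and P-cadherin (CDH3) 13 reads. Of the tight junction genes 5 of 13 were at 1 CPM or more, among them the scaffold TJP1 at 60.5 CPM and occludin (OCLN) at 17.9 CPM, while CLDN4 stood at 0.701 CPM, CLDN7 at 0.472 CPM and CLDN3 was not listed. Desmosome genes were at 1 CPM or more in 5 of 10 cases, led by PKP3 at 24.1 CPM and DSG2 at 23.7 CPM, whereas desmoplakin (DSP) stood at 1.37 CPM. Of 10 epithelial regulators only GRHL1 (5.65 CPM) passed 1 CPM. GRHL2 and GRHL3 had 1 read each, the splicing factor ESRP2 had 41 reads, and ESRP1, ELF3, EHF, OVOL1 and OVOL2 were not listed. None of the 11 epithelial proteases, inhibitors and surface proteins reached 1 CPM. MUC1 was the highest at 0.912 CPM, and 6 of them were not listed, including ST14 and RAB25.

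Most keratin genes were not listed. Of 55 keratin genes 7 (12.7%, beside 60.0% of all protein-coding genes) were at 1 CPM or more. A further 13 were listed below that, and 35 were not listed. After KRT18 (121 CPM) and KRT8 (63.0 CPM) came KRT15, a basal type I keratin, at 15.4 CPM, KRT80 at 6.75 CPM, KRT10 at 6.31 CPM, KRT7 at 2.85 CPM and KRT79 at 1.71 CPM. KRT19, often found in urothelium, had 6 reads and KRT13 had 5. Of the claudins, the strand proteins of tight junctions, 5 of 24 (20.8%, beside the same 60.0%) were at 1 CPM or more. CLDN12 stood at 40.4 CPM and CLDN1 at 4.09 CPM.

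Of the mesenchymal genes 36 of 49 (73.5%, beside 60.0% of all protein-coding genes) were at 1 CPM or more. The median over the 44 listed members was 14.9 CPM, beside 16.7 CPM over all listed protein-coding genes, while it was 0.798 CPM over the 42 listed epithelial members. After VIM, the membrane-cytoskeleton linker moesin (MSN) stood at 987 CPM and the ecto-enzyme CD73 (NT5E) at 1220 CPM. CDH2 was at 47.1 CPM (45.4 to 48.9), against an unlisted CDH1. Among the transcription factors of the mesenchymal transition, ZEB1 stood at 124 CPM, TCF4 at 34.1 CPM and ZEB2 at 16.9 CPM, while TWIST1 (3.80 CPM), SNAI1 (2.69 CPM) and SNAI2 (1.69 CPM) were lower and TWIST2 and PRRX1 were not listed. Per length, ZEB1 exceeded ZEB2 by 21.3 times, or by 11.3 times with the length of the longest transcript.

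The list was not uniformly high. The smooth muscle cytoskeleton genes ACTA2 (1.55 CPM), TAGLN (1.11 CPM) and CNN1 (0.228 CPM) lay near or below 1 CPM, and S100A4 stood at 0.815 CPM. The fibroblast markers FAP (2 reads) and PDGFRB (33 reads) were also low. Among matrix proteins TGFBI (193 CPM), SPARC (152 CPM) and fibronectin (FN1, 57.2 CPM) were the highest, whereas collagen I was near the floor, with COL1A1 at 0.407 CPM and COL1A2 not listed. Over all 44 collagen genes 20 (45.5%, beside 60.0% of all protein-coding genes) were at 1 CPM or more. The highest by CPM were COL4A2 at 58.0 CPM, COL17A1 at 44.9 CPM, COL6A2 at 36.5 CPM, COL18A1 at 30.2 CPM and COL27A1 at 27.1 CPM, and COL3A1 was not listed. COL4A2 and COL18A1 code for basement membrane collagens.

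**Figure D2:**
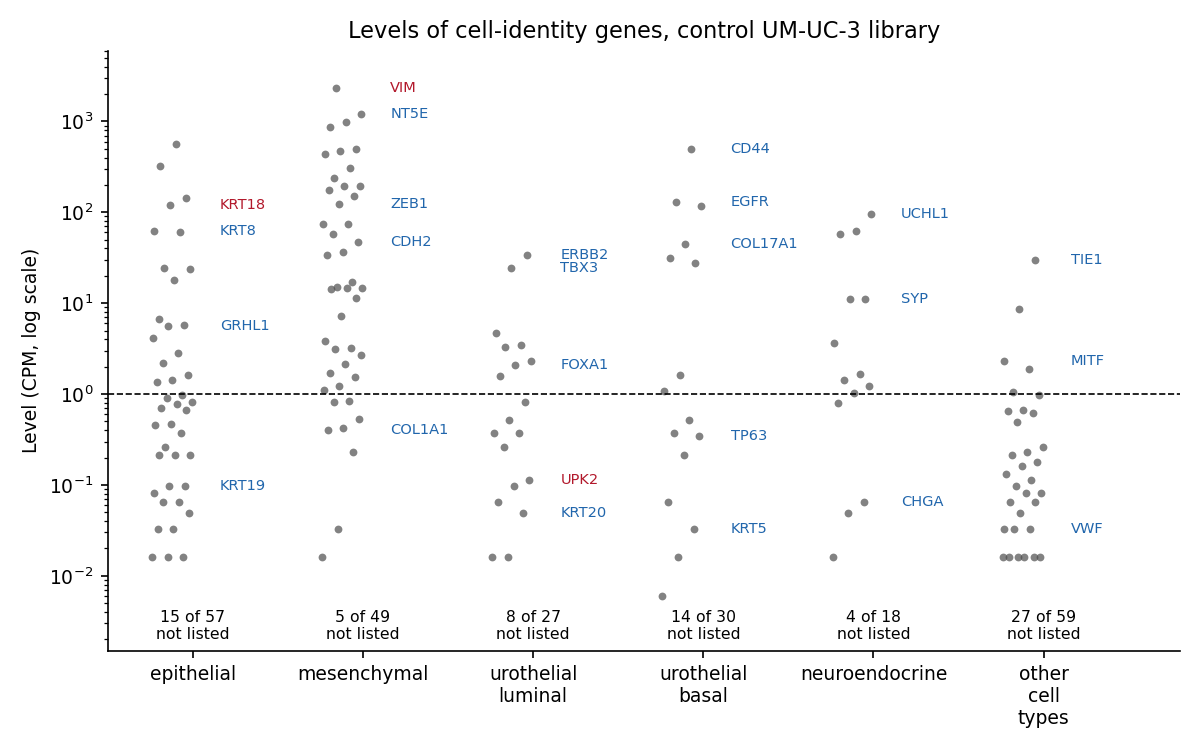
Level (CPM, log scale) of each listed member of 6 lists of cell-identity genes in the control UM-UC-3 library, 1 point a gene, with the number not listed under each column and a dashed line at 1 CPM. PI3 of the urothelial basal list had no read and is drawn at the bottom, and most mesenchymal genes (36 of 49) lay above the line while 18 of 57 epithelial genes did.

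Of the urothelial luminal genes 8 of 27 (29.6%, beside 60.0% of all protein-coding genes) were at 1 CPM or more. The uroplakins, which build the asymmetric unit membrane of umbrella cells, were all below 1 CPM, with 23 reads of UPK3B, 16 of UPK1A, 7 of UPK2, 4 of UPK1B, and UPK3A not listed. Per length FOXA1 stood at 0.520 RPKM (0.433 to 0.618) and PPARG at 0.514 RPKM (0.433 to 0.605), which do not differ beyond counting error, and GATA3 was lower at 0.0285 RPKM (0.0104 to 0.0619). The highest luminal transcription factor was TBX3 at 24.2 CPM. The luminal keratin KRT20 had 3 reads. Among the luminal receptors ERBB2 stood at 33.5 CPM, ERBB3 at 3.29 CPM and FGFR3 at 1.60 CPM.

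Of the urothelial basal genes 8 of 30 (26.7%, beside 60.0% of all protein-coding genes) were at 1 CPM or more. The basal genes fell into separate parts. None of the 7 keratins on this list reached 1 CPM. The list does not hold KRT15, the basal keratin at 15.4 CPM. KRT5 had 2 reads, and KRT14, KRT6A, KRT6B, KRT6C, KRT16 and KRT17 were not listed. TP63, the basal master regulator, had 21 reads (0.342 CPM). Of the 10 basal adhesion genes, in contrast, 7 were at 1 CPM or more, with the hyaluronan receptor CD44 at 495 CPM, ITGA6 at 119 CPM, COL17A1 at 44.9 CPM and LAMB3 at 31.7 CPM, although ITGB4, the partner of ITGA6 in hemidesmosomes, had 4 reads. None of the 10 squamous differentiation genes reached 1 CPM. The identity lists share members. CD44 is also counted as mesenchymal, and CDH3, DSC3 and DSG3 as epithelial. ELF3, KLF5 and GRHL3 are counted as both epithelial and luminal.

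The promoters of a few markers are shown as the 30 bases just before the RefSeq start (GRCh38.p14), chosen because the table gives a single start for each, with each CG dinucleotide in capitals. CG-rich promoters are typical of broadly expressed genes. KRT18 and UPK2 were not matched, and GATA3 has several starts:

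VIM, chr10:17228211-17228240, plus strand: agaaaaaccttccCGgtgcaatCGtgatct

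KRT8, chr12:52926470-52926499, minus strand: ttgtggggaggtgcctgatgcatgattttc

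KRT5, chr12:52520395-52520424, minus strand: gataaaaagggggcatcacCGttcctgggt

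UPK1A, chr19:35666487-35666516, plus strand: tatagggagccaCGgtgggtggggctggcc

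In the 250 bases before the start, VIM held 8 CG, KRT8 held 1, KRT5 held 6 and UPK1A held 4. In these 4 windows the CG count did not follow the level of the gene. Which start these cells use was not measured, so the windows may not be the promoters in use. Across 16535 matched promoters the median count was higher in the higher level classes, up to 10 CPM. The median was 7 CG for genes at 0 to 3 reads, 10 for genes with 4 reads to under 1 CPM, 19 for genes at 1 to 10 CPM, and 22 both for genes at 10 to 100 CPM and for those at 100 CPM or more. Unlisted protein-coding genes had a median of 4 CG. TATAAA, searched on both strands as an exact match, was present in 9.0% of all these windows. The share was 18.9% for unlisted genes, 11.9% at 0 to 3 reads, 10.6% from 4 reads to under 1 CPM, 6.49% at 1 to 10 CPM, 4.10% at 10 to 100 CPM and 7.0% at 100 CPM or more. Of the printed genes, UPK1A holds it. Genes are not independent replicates, and the counts are a description.

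**Figure D3:**
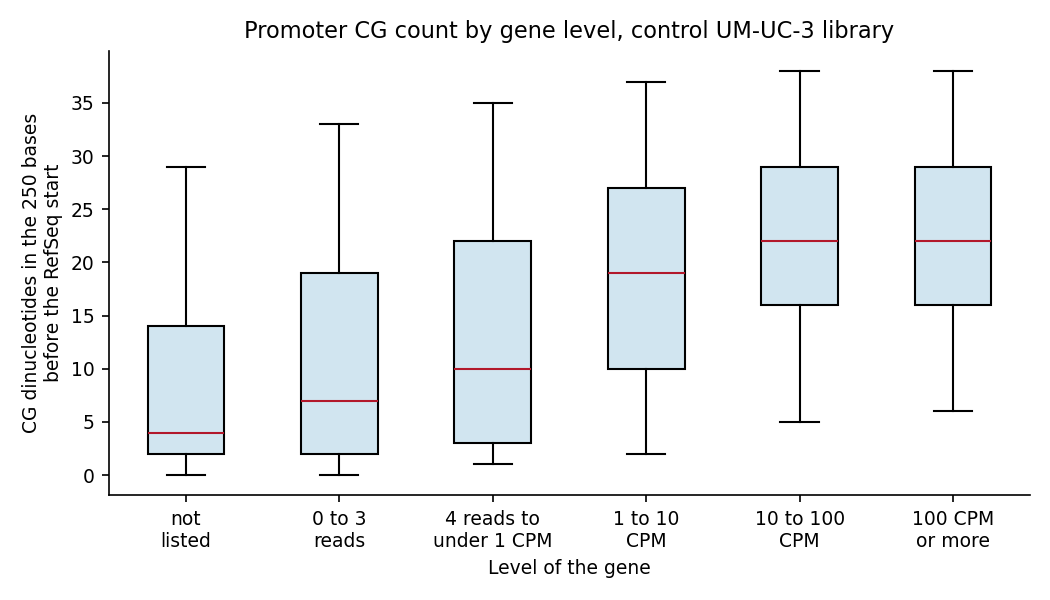
CG dinucleotides in the 250 bases before the RefSeq start (vertical axis) for genes in 6 level classes of the control UM-UC-3 library; boxes span the quartiles, red lines are medians and whiskers reach the 5th and 95th percentiles. The median went from 4 in unlisted genes to 22 in genes at 100 CPM or more.

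Receptor tyrosine kinases pass growth signals from the cell surface. Of 58 genes 29 were at 1 CPM or more, a lower share than the 60.0% of all protein-coding genes, and 6 were not listed. Per length the order was led by AXL, the GAS6 receptor, at 92.0 RPKM (91.0 to 93.1), then the ephrin receptor EPHA2 at 61.6 RPKM (60.7 to 62.6) and the HGF receptor MET at 53.2 RPKM (52.5 to 53.9), whose intervals do not overlap. The same 3 led with the length of the longest transcript. RYK (17.5 RPKM), EPHB4 (14.6 RPKM), FGFR1 (11.9 RPKM) and EGFR (10.3 RPKM) followed. FGFR1 exceeded EPHB4 when the longest transcript was used, so their order is not fixed by these data. AXL exceeded MET by 1.73 times per length (1.70 to 1.76).

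The spread within the families varied. All 3 TAM receptors and both collagen receptors, DDR1 (28.2 CPM) and DDR2 (11.5 CPM), were at 10 CPM or more. In the ERBB family EGFR exceeded ERBB2 by 3.17 times per length (3.02 to 3.33), or by 1.93 times (1.84 to 2.03) with the longest transcript. ERBB2 exceeded ERBB3 by 8.92 times (7.71 to 10.4), or 12.2 times with the longest transcript, and ERBB4 had 1 read. In the FGF receptor family FGFR1 exceeded FGFR3 by 36.0 times per length (29.5 to 44.4), or 73.4 times (60.2 to 90.5) with the longest transcript, FGFR4 stood at 2.70 CPM and FGFR2 had 6 reads. Of 14 ephrin receptors 4 were at 1 CPM or more, namely EPHA2 (61.6 RPKM), EPHB4 (14.6 RPKM), EPHB2 (6.74 RPKM) and EPHA4 (0.304 RPKM). The VEGF receptors KDR and FLT1 were not listed and at 1 read, respectively, and FLT4 stood at 3.31 CPM. TIE1, an orphan receptor of endothelium, stood at 29.6 CPM, and its partner TEK at 0.489 CPM, a ratio of 43.4 per length (30.3 to 64.6), or 74.2 (51.8 to 110.3) with the longest transcript.

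**Figure D4:**
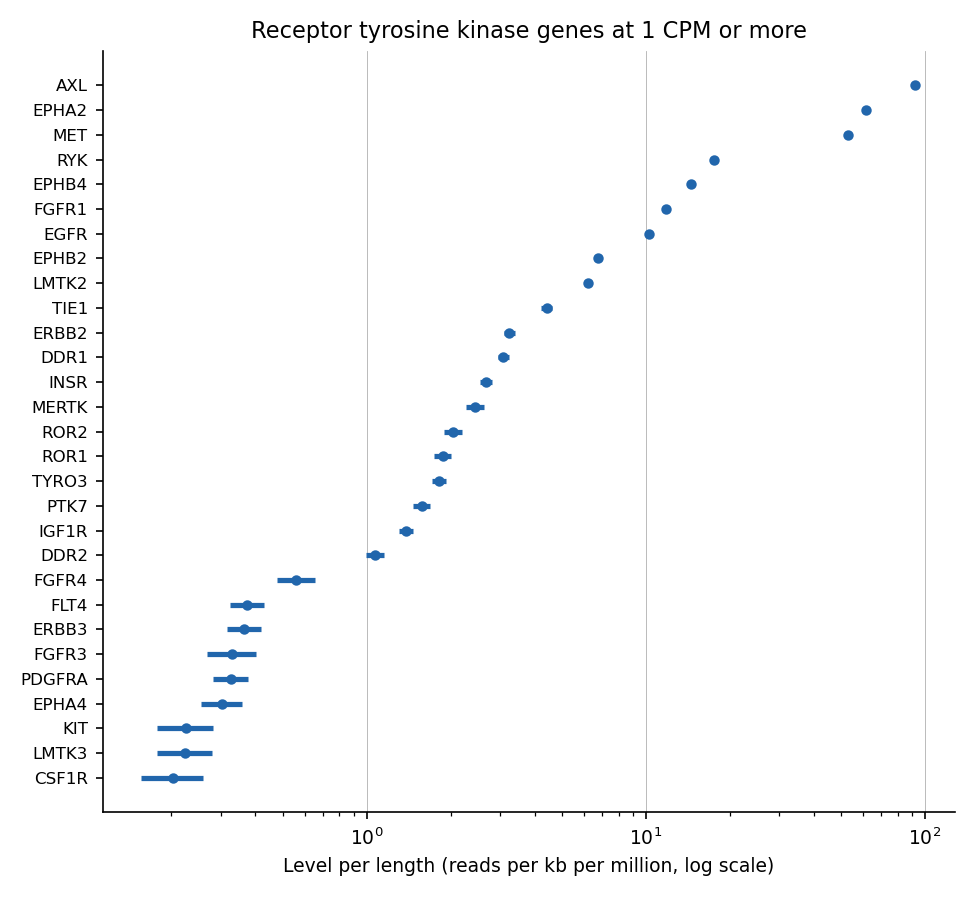
Level per length (reads per kb of exon per 1000000 reads, log scale) of the 29 receptor tyrosine kinase genes at 1 CPM or more in the control UM-UC-3 library; points are values and bars 95% exact Poisson intervals, which are narrower than the point for the highest genes. AXL, EPHA2 and MET led, and CSF1R at 0.202 RPKM was the lowest.

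Of 47 growth factor ligands 30 (63.8%, near the 60.0% of all protein-coding genes) were at 1 CPM or more. For the leading receptors, GAS6, the ligand of AXL, stood at 25 CPM and HGF, the ligand of MET, was not listed. Among ERBB ligands HBEGF (69.0 CPM), NRG1 (45.7 CPM) and EREG (42.8 CPM) were the highest, EGF had 1 read and AREG was not listed. FGF2 stood at 36.5 CPM and FGF1 at 19.8 CPM. VEGFA stood at 129 CPM, KITLG at 115 CPM, the ephrin ligand EFNB2 at 98.7 CPM and the macrophage factor CSF1 at 56.1 CPM.

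Other receptors were more often present, with 56 of 68 (82.4%, beside 60.0% of all protein-coding genes) at 1 CPM or more. All 10 TGF-beta and BMP receptors passed, led by TGFBR2 at 99.9 CPM and BMPR1A at 97.7 CPM, and so did all 17 cytokine and death receptors. Among these the TWEAK receptor TNFRSF12A stood at 216 CPM, IL6ST at 207 CPM, the decoy receptor IL13RA2 at 192 CPM, OSMR at 143 CPM and the TRAIL receptor TNFRSF10B at 116 CPM. Of the Notch receptors, NOTCH2 stood at 269 CPM and NOTCH1 at 25.3 CPM, and NOTCH3 had 3 reads. The G protein-coupled receptors did not share this excess, with 10 of 18 (55.6%, beside the same 60.0%) at 1 CPM or more. Among them the protease-activated receptor F2RL1 stood at 94.1 CPM and the adenosine receptor ADORA2B at 46.0 CPM. The transferrin receptor TFRC stood at 310 CPM.

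Of 47 nuclear receptors 28 (59.6%, near the 60.0% of all protein-coding genes) were at 1 CPM or more. The glucocorticoid receptor NR3C1 was the highest at 182 CPM. ESR1 (31 reads) and ESR2 (32 reads) were below 1 CPM and PGR was not listed. The liver X receptor NR1H2 stood at 88.6 CPM, RARG at 39.3 CPM and RXRA, the partner of PPARG, at 35.2 CPM.

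Integrins, which bind the matrix, were at 1 CPM or more in 13 of 26 cases, a lower share than the 60.0% of all protein-coding genes. ITGB1 at 347 RPKM and ITGA3 at 136 RPKM, a laminin receptor pair, exceeded the others, and ITGA3 exceeded ITGA6 by 7.5 times per length (7.32 to 7.68), or 11.5 times (11.3 to 11.8) with the longest transcript. ITGA5 (175 CPM), ITGAV (136 CPM) and ITGB5 (136 CPM) followed by CPM, and ITGB8, ITGA8 and ITGA9 were not listed.

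Of 45 secreted factors 25 (55.6%, beside 60.0% of all protein-coding genes) were at 1 CPM or more. Urokinase (PLAU), which activates plasminogen, was the highest by CPM at 1523 CPM (1513 to 1532), or 516 RPKM. PLAU overlaps C10orf55. TIMP1 stood at 69.9 CPM, the gelatinase MMP9 at 50.3 CPM and MMP2 at 14.2 CPM. Among cytokines CCL2 (68.9 CPM), IL11 (62.7 CPM), LIF (53.0 CPM), CXCL1 (38.3 CPM) and CXCL8 (37.2 CPM) led, whereas IL6 had 7 reads and TNF had 11. TGFB1 stood at 22.7 CPM and TGFB2 at 0.196 CPM.

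Of 42 genes often altered in bladder cancer 37 (88.1%, beside 60.0% of all protein-coding genes) were at 1 CPM or more. The other 5 were not listed, among them CDKN2A, CDKN2B, MTAP and TXNIP. All 8 chromatin regulators were measured between 22.6 CPM (KDM6A) and 115 CPM (KMT2D). Among suppressors of the cell cycle RB1 stood at 140 CPM and CDKN1A at 116 CPM. CCND1, which drives entry into S phase, stood at 1187 CPM and MYC at 210 CPM. TERT, the telomerase catalytic subunit, stood at 10.7 CPM.

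The neighbours of these 4 genes were read in the order of GENCODE release 29 on GRCh38. MTAP, an unnamed gene model, CDKN2A, CDKN2B and DMRTA1 formed a run of 5 unlisted protein-coding genes on chromosome 9 from 21802543 to 22455740. The listed gene before it was IFNE with 13 reads and the one after it ELAVL2 with 27 reads. Farther out on the same side as ELAVL2, TUSC1 stood at 42.6 CPM and CAAP1 at 46.5 CPM, and the interferon genes on the other side, IFNA1, IFNA8, IFNA2 and IFNA13, were not listed.

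Unlisted runs in the library were also compared by their number of genes. Of 2288 runs of unlisted protein-coding genes, 119 were at least as long as the run around CDKN2A. The count goes by length alone, and the kinds of genes in the runs were not compared. TXNIP differed, since 6 of its 10 neighbours were at 1 CPM or more, among them PRKAB2 at 28.6 CPM, and RBM8A beside it was not listed. DNA was not measured, and some genes may be carried under retired identifiers. A lost gene, a gene without transcripts and a gene carried under another identifier therefore cannot be told apart, for TXNIP and RBM8A as for the others.

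Of 27 genes often silenced in tumours 14 (51.9%, beside 60.0% of all protein-coding genes) were at 1 CPM or more. GSTP1, a glutathione transferase, stood at 539 CPM, APC at 142 CPM and CASP8 at 99.5 CPM. MGMT, which removes alkyl groups from guanine, stood at 5.59 CPM. The Wnt antagonists were divided, with DKK3 at 29 CPM, SFRP1 at 16 CPM and DKK1 at 4.55 CPM, SFRP5 at 3 reads, SFRP4 at 1 read, and SFRP2 and WIF1 not listed. TIMP3 had 5 reads, RARB stood at 0.831 CPM, and RUNX3 and SYK were not listed.

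The HOX genes record position along the body axis. They were at 1 CPM or more in 20 of 39 cases (51.3%, beside 60.0% of all protein-coding genes). The HOXB cluster had 8 of 10 genes at 1 CPM or more and a summed level of 87.4 CPM, and HOXD had 5 of 9 and 41.2 CPM. HOXA had 3 of 11 and 9.37 CPM, and HOXC 4 of 9 and 8.96 CPM. The highest members were HOXB4 (28.0 CPM), HOXD4 (20.5 CPM), HOXB2 (19.5 CPM) and HOXB3 (12.4 CPM). HOXB4 overlaps HOXB3 and HOXD4 overlaps HOXD3. Members of groups 10 to 12 were not listed or had no reads, while HOXC13 stood at 3.37 CPM and HOXD13 at 3.0 CPM.

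**Figure D5:**
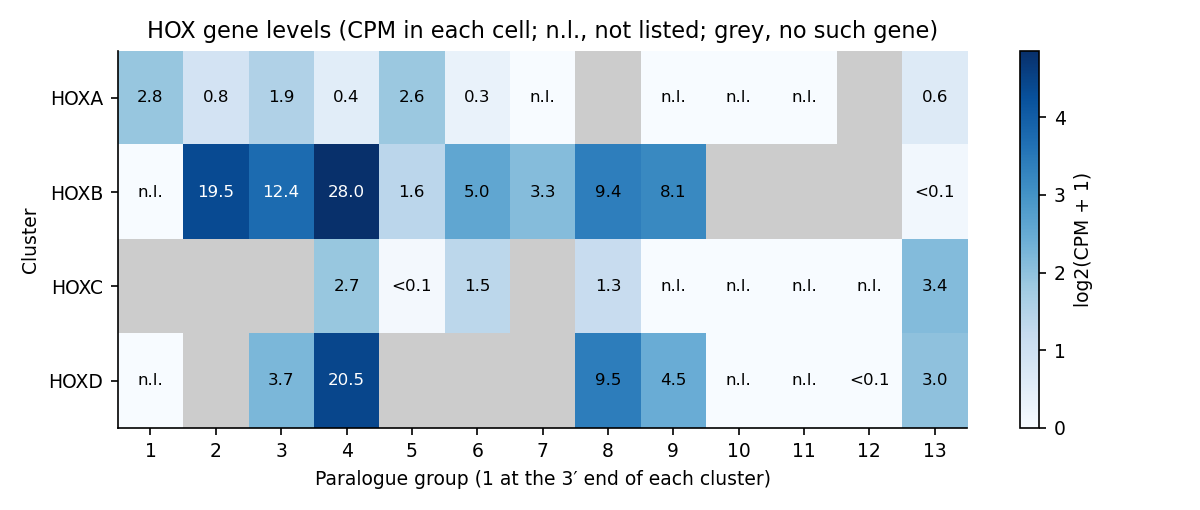
Level of each HOX gene in the control UM-UC-3 library by cluster (rows) and paralogue group (columns); numbers are CPM, colour is log2(CPM + 1), n.l. marks genes not listed and grey marks groups without a gene. The highest cells are HOXB4 at 28.0 and HOXD4 at 20.5.

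Cancer-testis genes are normally read in the germline. They were at 1 CPM or more in 5 of 76 cases (6.58%, beside 60.0% of all protein-coding genes), and 66 were not listed. The 5 were members of the MAGE family on the X chromosome. MAGEA4 stood at 111 CPM, MAGEA6 at 83.3 CPM, MAGEC2 at 83.3 CPM, MAGEA10 at 18.2 CPM and MAGEA3 at 3.45 CPM. MAGEA3 and MAGEA6 are near-identical, and the split of reads between them is uncertain. PRAME had 6 reads. The NY-ESO and SSX families of the list contributed no gene at 1 CPM.

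Of the 59 markers of other cell types 5 (8.47%, beside 60.0% of all protein-coding genes) were at 1 CPM or more and 27 were not listed. Among the 5 were TIE1 (29.6 CPM), MITF (2.30 CPM), MYH11 (1.87 CPM) and CSF1R (1.04 CPM). Of the other markers, 17 had over 3 reads but stayed under 1 CPM, among them TEK with 30 reads and the melanocyte genes MLANA, PMEL and DCT. Another 10 were listed at 3 reads or fewer, such as VWF and CDH5 at 2 reads each and CKM at 1 read. PTPRC, CD3E and ALB were among those not listed. MYH11 overlaps NDE1. Of 18 neuroendocrine genes 10 (55.6%, beside 60.0% of all protein-coding genes) were at 1 CPM or more. The highest were the ubiquitin hydrolase UCHL1 at 96.7 CPM, PEG10 at 61.7 CPM and ENO2 at 58.2 CPM. SYP stood at 11.2 CPM, CHGA had 4 reads, and INSM1, NEUROD1 and SOX2 were not listed.

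Of 21 therapy targets 11 (52.4%, beside 60.0% of all protein-coding genes) were at 1 CPM or more. EGFR stood at 129 CPM and ERBB2 at 33.5 CPM, while NECTIN4, a target of antibody conjugates in urothelial cancer, had 2 reads. Among checkpoint ligands PVR stood at 149 CPM, CD47 at 101 CPM, HLA-E at 101 CPM, NECTIN2 at 65.3 CPM, CD276 at 23.3 CPM and PD-L1 (CD274) at 2.80 CPM. Of 33 genes of drug handling 20 (60.6%, near the share of all protein-coding genes) were at 1 CPM or more. Metallothionein MT2A stood at 407 CPM, the copper and platinum importer SLC31A1 at 24.7 CPM, the exporter ABCC4 at 171 CPM and ABCC1 at 44.8 CPM, and ABCB1 was not listed. For nucleoside drugs, RRM1 stood at 217 CPM, the transporter SLC29A1 at 56.4 CPM, and CDA, which inactivates cytidine analogues, had 1 read.

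Of 14 imprinted genes 8 (57.1%, near the 60.0% of all protein-coding genes) were at 1 CPM or more. PEG10 stood at 61.7 CPM, GRB10 at 37.9 CPM and PLAGL1 at 19.4 CPM. IGF2 stood at 6.04 CPM and H19, which lies beside it, at 2.15 CPM. MEST had 6 reads, and DLK1, MEG3, NDN, MAGEL2 and PEG3 were not listed. All 25 common reference genes were at 1 CPM or more and spanned a wide range, with TBP at 22.4 CPM and HPRT1 at 25.5 CPM among the lowest and ACTB at 1435 CPM and GAPDH at 9716 CPM among the highest.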

How the data were processed

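Total RNA from transfected UM-UC-3 cells was sequenced, and the authors deposited CPM per Ensembl gene identifier, in a separate file for each library. Build hg19 is named in the submitters' processing notes. The aligner, counter and annotation are not given in the sources used here, nor whether strand was used. Of the control values, 100% of those above the placeholder were whole multiples of 0.0163 CPM (tolerance 0.01 read), from which the read counts were taken. The 308 genes at the placeholder were set to 0 reads. Of 25719 identifiers 24085 matched GENCODE release 29 (GRCh38), the source of positions, classes and union exon lengths, while the promoters are from RefSeq (GRCh38.p14). Genes with identifiers above the highest in the table (832 protein-coding genes) were not assessed, and chromosome Y and XIST were left out. No gene of the mitochondrial genome is listed, so its share was not analysed here. Promoters of 16535 genes were matched, using the first start listed for genes with several.

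Members, lists and thresholds were chosen with earlier results of these data known. The genes named are the 25 highest by CPM and by RPKM, members of the 23 gene lists and families, the 10 highest long noncoding RNAs and pseudogenes, and 5 protein-coding neighbours on each side of unlisted bladder cancer genes. RPS and RPL, histone and SNHG families were summed after their values were seen. Family members were found by symbol among protein-coding genes. Some results are not reported here. No test was run. Recovery of reads was tested on simulated data. Python 3.11, numpy, pandas, scipy and matplotlib were used. Alternatives were other thresholds, TPM, other lengths, another promoter window and other denominators.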

Additional observations from a re-analysis of the deposited data

Results flagged for a closer look

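A share of 9.11% of the reads lay on 1634 listed identifiers without a match in GENCODE release 29, which no list or class of genes uses. It is given here because this signal lies outside the genes described and is far above what 3 reads allow. Of these identifiers, 364 were at 1 CPM or more. The highest stood at 51128 CPM, the highest value in the library, and the next at 21970 CPM, and all the others together held 1.80% of the reads. The files do not pair them with names, and what they are was not tested.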

How the results depend on the processing

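Counts at 1 CPM moved by over 1.5 times at 0.1 CPM for all listed genes (20188), epithelial genes (31) and urothelial luminal genes (14), and at 5 CPM for urothelial luminal genes (2). The share of the 100 highest genes was 56.1% of TPM and 31.4% among genes at 1 CPM or more, and that of protein-coding genes 61.4% and 85.6%. The ratio of VIM to KRT18 was 15.1 with the longest transcript and 19.3 without length. In every other planned setting that was run, counts and the promoter CG difference stayed within 1.5 times. Leaving out mitochondrial genes changed nothing, because none is listed, and the settings for their share could not be computed. No paired analysis was possible because there is 1 library. Levels near 3 reads (0.0489 CPM) are at the limit of the depth, and no spread between cultures was measured.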
